A study of Mus musculus with 4 samples.

Results

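Cytosolic ribosomal proteins are the protein subunits of the ribosome that translates nuclear-encoded mRNA. Members were chosen by symbol alone: any listed gene named Rpl or Rps with a number and an optional a, x or y, plus Rplp0, Rplp1, Rplp2 and Rpsa. The rule found 68 genes among the 11237 symbols listed in either tissue's table. The heart table held 67 members among 10791 genes, the table of tibialis anterior (TA), a fast hindlimb muscle, held 67 among 10352, and 66 members were in both. Large-subunit proteins (Rpl and Rplp) made up 40 members and small-subunit proteins (Rps and Rpsa) 28. Rps26 was listed for heart only and Rpl32 for TA only, and Rplp2 was listed for neither and is not analysed here.

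The samples were 4 libraries from 10-week-old C57BL/6J male mice with no genetic change or treatment in the labels: ribosome-protected fragments (RPF, the pieces of mRNA a ribosome shields from nuclease) and ribosomal RNA-depleted total RNA, each from heart and from TA. Each group was 1 library, so there was no replicate check, no test was possible, and no standard deviation exists. The sources used here do not give the number of animals behind a library. Intervals below are 95% intervals that cover counting error only, and a size of at least 2-fold was the rule for naming a difference. RPM here is a gene's read number after every library was put on the same total of coding reads. RPM values are not divided by gene length unless given per kb.

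Each mature ribosome holds a single copy of most of these proteins, so a cell needs them in near-equal amounts. The proteins are imported into the nucleolus, assembled on ribosomal RNA, and degraded when they find no partner. Their mRNAs are the classic TOP mRNAs, which begin with a pyrimidine tract at the cap, and through this tract mTOR signalling and the protein Larp1 can hold them back from ribosomes or release them.

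The sequence around the annotated transcription start is shown for the 4 members of lowest and the 4 of highest translational efficiency in TA that had an entry in the RefSeq promoter table (build GRCm38.p6), because the efficiencies of these 8 frame the results below. Each line is 30 bases, 5′ to 3′ on the gene's own strand, and capitals mark the longest unbroken run of C or T bases within 50 bases on either side of the annotated start. Where a gene had several annotated starts, the one with the longest run was used.
Rps12: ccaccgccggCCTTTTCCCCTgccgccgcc
Rps2: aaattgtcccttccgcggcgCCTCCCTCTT
Rplp0: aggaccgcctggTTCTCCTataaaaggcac
Rpl13a: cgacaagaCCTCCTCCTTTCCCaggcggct
Rpl41: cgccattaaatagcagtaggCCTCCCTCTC
Rpl27: catcctcgCTCCTCCCTCCacacgccggaa
Rpl28: gcctctcgtgTCTCTCTTTCCgtctccggc
Rpl35: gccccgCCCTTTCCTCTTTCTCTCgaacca

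These windows lie at chr10:23787182-23787211 on the minus strand (Rps12), chr17:24720083-24720112 on the plus strand (Rps2), chr5:115559466-115559495 on the plus strand (Rplp0) and chr7:45128722-45128751 on the minus strand (Rpl13a). The other four lie at chr10:128549119-128549148 on the minus strand (Rpl41), chr11:101442195-101442224 on the plus strand (Rpl27), chr7:4792952-4792981 on the plus strand (Rpl28) and chr2:39005115-39005144 on the minus strand (Rpl35). The runs of Rpl27, Rpl28 and Rpl35 began upstream of the annotated start and the other five downstream of it, and those of Rps2 and Rpl41 reached the end of the searched window. Of the 68 members, 49 had a promoter entry, and 41 of these (83.7%) held a run of at least 8 bases of C or T on the sense strand, against 39.3% of all 27025 symbols in that table. The longest run had a median of 11 bases in members and 7 in all symbols. Among the 8 shown, Rplp0 had the shortest run (7 bases) and Rpl35 the longest (18 bases), so long runs stood at both ends of the efficiency order. Across members the rank correlation of run length with efficiency was 0.14 in heart (n = 49) and 0.23 in TA (n = 48), a description over genes that share the same libraries. A run is a match of letters near an annotated start and does not show where transcription began in these muscles.

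Depth, recovered from the steps between low values, was 28117770 coding reads for RPF and 9282049 for RNA in heart, and 28517161 for RPF and 16049225 for RNA in TA. Every member had at least 10 RPM of coding RNA where it was listed, so none was lost to the filter on low values, and the fewest reads were 263 of RNA (Rpl41 in TA) and 330 of RPF (Rps28 in TA). The tissue labels matched their marker genes. The 8 cardiac markers summed to 99700 RPM of heart RNA and the 6 of them listed for TA to 246 RPM, while the 10 fast-muscle markers summed to 185000 RPM of TA RNA and the 6 listed for heart to 2240 RPM. Sequence shared between genes limits most members: a median of 97.96% of the 28-base words in a member's coding sequence also occurred in transcripts of other genes, pseudogene transcripts included, and 56 of 68 members were at 80% or above. The corresponding medians were 0.0% for mitochondrial ribosomal proteins, 3.47% for initiation factors and 40.0% for elongation factors and other TOP mRNAs. No source used here says how the authors assigned reads that fit several places, and single member values are uncertain where such reads could be split or dropped.

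Ribosomal protein mRNAs were among the more abundant in both muscles. Per kb of coding sequence the median member stood at 428.6 RPM per kb in heart RNA, where the median of all listed genes was 14.77, and at 309.4 in TA RNA, 32.9 times the median gene. In footprints the median member stood at 285.5 RPM per kb in heart, 29.5 times the median gene, and at 152.7 in TA, 21.4 times (98.2 when UTR reads and lengths are added). Together the members took 1.59% (Wilson interval 1.58 to 1.59) of coding RNA reads in heart and 1.17% (1.16 to 1.17) in TA. Of coding footprints they took 1.12% (1.11 to 1.12) in heart and 0.606% (0.603 to 0.609) in TA. The members' share was thus lower in footprints than in RNA in both muscles, and the gap was wider in TA.

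RNA levels were more even across members than footprint levels. In heart RNA 62 of 67 members lay within 2-fold of the member median per kb and in TA RNA 59 of 67, against 52 and 51 of 67 in footprints. The standard deviation over members of log2 RPM per kb was 0.55 in heart RNA and 0.62 in TA RNA, and 0.94 and 1.05 in the footprint libraries. RNA levels per kb kept their order between the tissues (Spearman 0.90 over 66 members), and within a tissue the RNA level said little about the footprint level (Spearman 0.14 in heart and 0.20 in TA, n = 67), again as descriptions over genes of shared libraries.

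**Figure D1:**
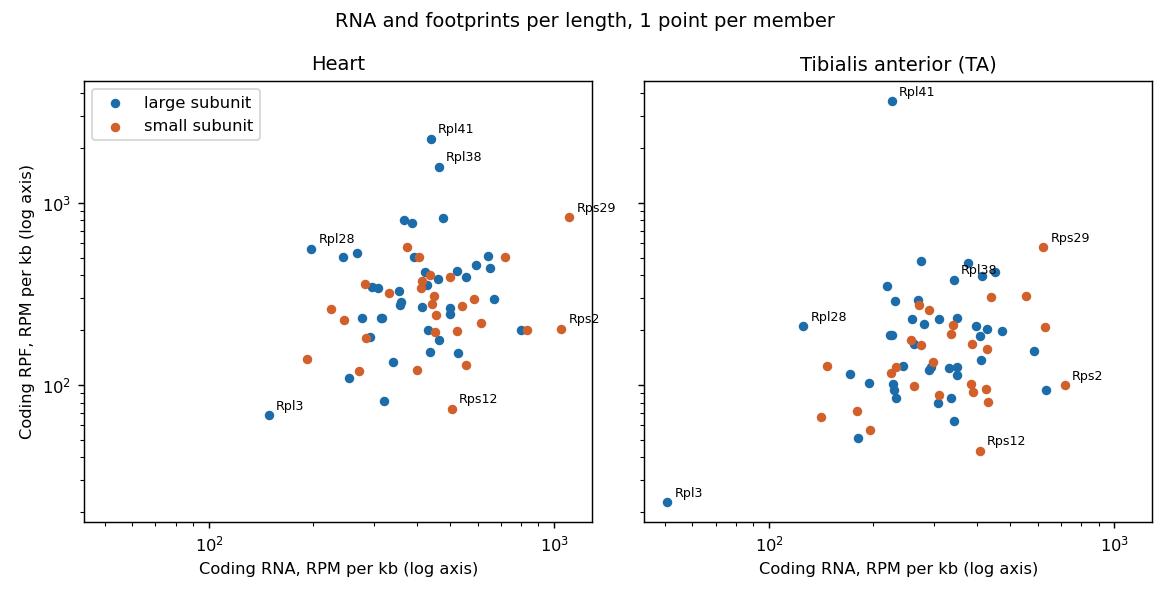
Coding footprints (vertical) against coding RNA (horizontal) in RPM per kb on log axes for each member, in heart on the left and TA on the right, with large-subunit proteins in blue and small-subunit proteins in orange. Rpl3 is lowest on both axes in both tissues, and Rpl41 is highest in footprints at 2247 RPM per kb in heart and 3616 in TA.

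Rpl3, a core large-subunit protein near the peptidyl transferase centre, was the lowest member per kb in all 4 libraries, at 149.0 RPM per kb in heart RNA, 68.27 in heart RPF, 50.72 in TA RNA and 22.74 in TA RPF. The highest RNA levels per kb belonged to small-subunit proteins. Rps29, a small zinc-binding protein, led heart RNA at 1105 RPM per kb, and Rps2, which lines the mRNA entry side of the small subunit, led TA RNA at 718.8. Footprints had another leader in both muscles: Rpl41, the smallest protein of the ribosome, at 2247 RPM per kb in heart and 3616 in TA. With only 72 coding bases listed, Rpl41's density rests on a short stretch. The next highest were Rpl38 in heart at 1579 RPM per kb and Rps29 in TA at 570.8.

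The subunits differed in opposite directions in RNA and footprints. Median RNA per kb was 412.7 for large and 445.9 for small-subunit proteins in heart, and 292.4 against 336.4 in TA. Median footprints per kb were 326.1 for large and 266.2 for small-subunit proteins in heart, and 177.2 against 127.1 in TA. These differences are small beside the spread within each subunit, whose quartiles in heart RPF ran from 216.3 to 479.0 for the large and from 197.4 to 361.1 for the small subunit.

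Translational efficiency is the log2 ratio of coding RPF to coding RNA, each with 0.1 RPM added, minus the tissue's median over the genes that reach 1 RPM of RNA, so 0 is the median gene. In heart the ribosomal proteins as a group sat at the median gene (median efficiency -0.02), whereas in TA they sat below it (median -0.81). At least 2-fold above the median gene were 9 of 67 members in heart, 13.4% where 16.0% of all genes were, and 10 of 67 were at least 2-fold below, 14.9% against 17.8% of all genes. In TA 3 of 67 were at least 2-fold above, 4.48% against 15.4% of all genes, and 25 of 67 at least 2-fold below, 37.3% against 18.7%. Heart shares were therefore near the background, and in TA the members were above it less often and below it more often. With the trend over coding length removed the medians were -0.74 in heart and -1.25 in TA, with 21 and 41 of 67 members at least 2-fold below, where 16.4% and 17.5% of all genes were. Without centring the heart median was -0.46, with 20 of 67 members at least 2-fold below, where 29.8% of all genes were. Members were short (median 466.5 coding bases, all genes 1416), and short coding sequences had higher efficiencies over all genes in heart (Spearman -0.39 with log2 length).

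**Figure D2:**
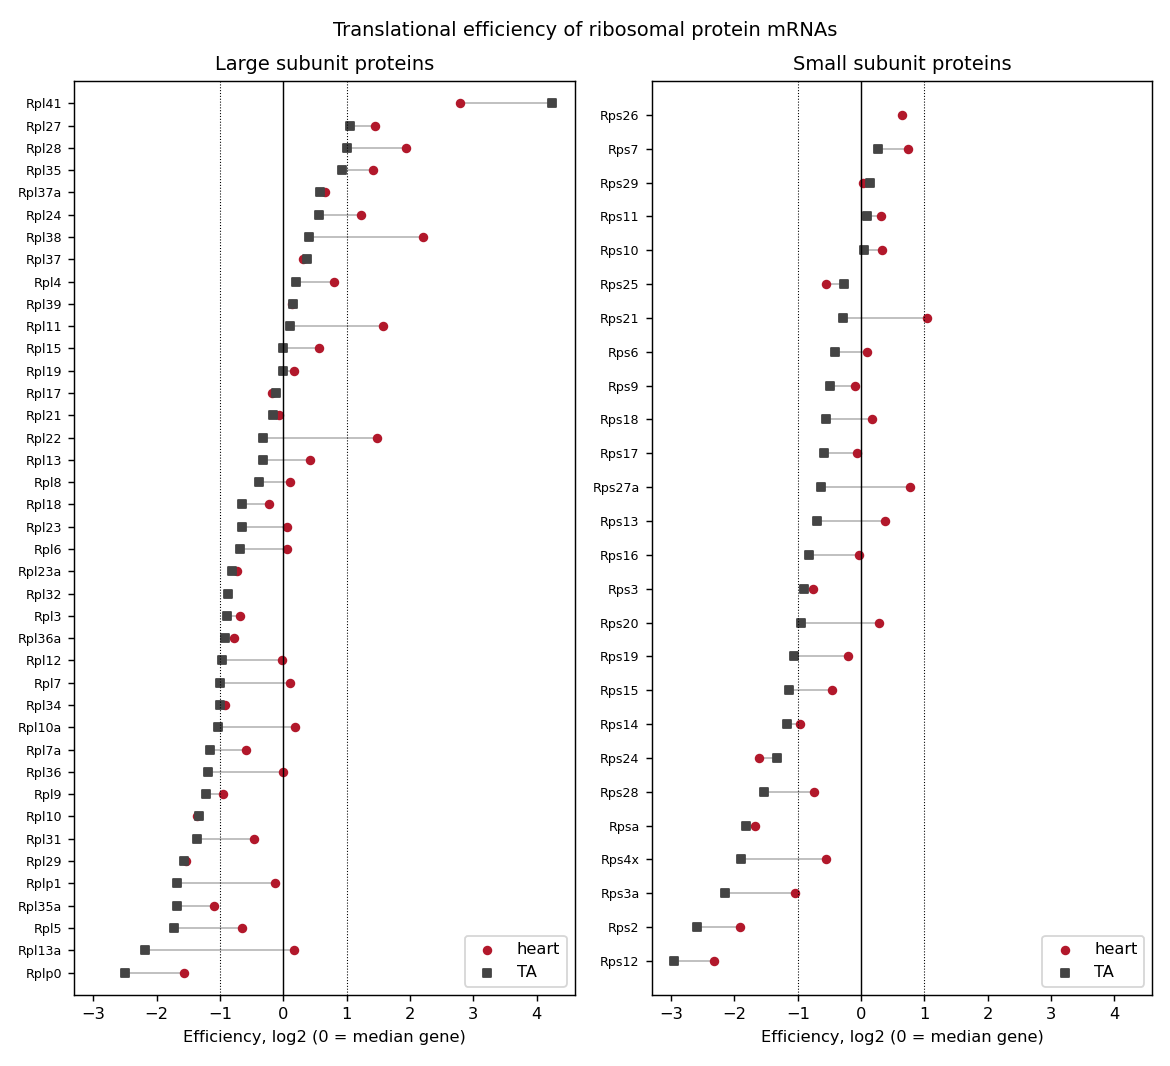
Translational efficiency (log2, 0 is the median gene, dotted lines mark 2-fold) of the plotted members in heart (red circles) and TA (dark squares), for large-subunit proteins on the left and small-subunit proteins on the right, ordered by TA. The TA value lies to the left of the heart value except in 8 members, of which Rpl41 is the widest exception.

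The lowest efficiencies in both muscles came with footprint levels per kb below the member median. Rps12, a small-subunit head protein, had 198.21 RPM of RNA and 29.05 of RPF in heart, and 160.10 and 17.07 RPM in TA. Its efficiency was -2.33 (interval -2.45 to -2.21) in heart and -2.96 (-3.11 to -2.83) in TA, the lowest of all members in each tissue. Rps2 had 917.01 RPM of RNA and 178.61 of RPF in heart, and 629.67 and 87.27 RPM in TA. Its efficiency was -1.92 in heart and -2.59 in TA. Rplp0, the scaffold of the acidic stalk that recruits elongation factors, had 758.07 RPM of RNA and 189.10 of RPF in heart, and 600.30 and 88.49 RPM in TA. Its efficiency was -1.56 in heart and -2.50 in TA. Rps2 and Rplp0 were among the 4 highest members in RNA per kb in both tissues, whereas Rps12 stood at 504.4 RPM per kb in heart and 407.4 in TA, nearer the member median. The footprints of all 3 were below the member median per kb in both tissues. Of coding 28-base words, 100.0% of Rps12, 92.28% of Rps2 and 78.96% of Rplp0 are shared with other transcripts.

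In all, 10 of the 66 members in both tables were at least 2-fold below the median gene in both muscles, where 13.7% of all genes were. Others of these were Rpsa, a small-subunit protein also known as the laminin receptor, at -1.67 in heart and -1.83 in TA, and Rps24 at -1.62 and -1.33. Rpl29 stood at -1.53 and -1.56, and Rpl10, which joins the large subunit late in its maturation, at -1.37 and -1.33. A further 15 of 66 were at least 2-fold below in TA only, where 4.98% of all genes were.

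The efficiencies of 3 of 66 members, all of the large subunit, exceeded the median gene at least 2-fold in both muscles, against 10.5% of all genes. Rpl41 had 161.75 RPM of RPF and 31.57 of RNA in heart, and 260.33 and 16.33 RPM in TA. Its efficiency was 2.79 (2.63 to 2.97) in heart and 4.25 (4.08 to 4.44) in TA, the highest member in both. All of its coding 28-base words (100.0%) are shared with other transcripts, which these intervals do not cover. Rpl27 stood at 1.44 and 1.05, and Rpl28, a protein of the eukaryotic large subunit without a bacterial counterpart, at 1.94 and 1.00. Most Rpl41 RNA reads fell outside its short coding part: 3-prime UTR reads were 84.4% of coding plus 3-prime UTR reads in heart RNA and 87.3% in TA RNA, but 1.58% and 0.215% in the RPF libraries.

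Large-subunit proteins were somewhat higher in efficiency than small-subunit proteins. Their medians were 0.06 and -0.16 in heart, and -0.68 and -0.90 in TA. In heart 8 of 39 large-subunit proteins (20.5%) and 1 of 28 small-subunit proteins (3.57%), Rps21, were at least 2-fold above the median gene. Of all genes 16.0% were. At least 2-fold below in heart were 4 (10.3%) and 6 (21.4%), where 17.8% of all genes were. In TA 13 of 40 large-subunit (32.5%) and 12 of 27 small-subunit proteins (44.4%) were at least 2-fold below, where 18.7% of all genes were. The differences between the subunit medians, 0.21 and 0.22, are under the distance between the quartiles of either subunit, and they moved with the choice of members. Among members with at least 300 coding bases the difference in TA was 0.05, and among the few with under 80% shared words it was 0.92 in heart and 0.51 in TA.

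Values from the 2 tissues' tables were then compared directly as the log2 of heart over TA. The tables were made separately, each relative to its own coding reads, and in whole-tissue samples fewer cells of a type and less RNA per cell cannot be told apart. RNA of ribosomal proteins was somewhat higher in heart by this measure (median 0.47), but less so than the median gene (0.70). Only 1 of 66 members was at least 2-fold higher in heart RNA, 1.52% where 35.0% of all genes were, and 0 of 66 at least 2-fold lower, where 3.88% of all genes were. The shift of the median gene lay above that of 57 members and below that of 9. Relative to the median gene, the member median was -0.23, and with the 50 most abundant genes of each library left out of the totals it was -0.12, so the direction of the RNA difference depends on the total it is scaled to.

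Footprints moved more than RNA. The median log2 ratio of heart over TA was 0.88 in RPF against 0.60 for all genes. At least 2-fold higher in heart RPF were 27 of 66 members, 40.9% where 30.1% of all genes were, and 0 of 66 were at least 2-fold lower, where 5.06% were. In 26 of 66 members footprints were at least 2-fold higher and RNA less than 2-fold higher, a pattern that 7.07% of all genes showed. With only 1 of 66 members at least 2-fold higher in RNA, this count largely follows from the footprint count. Relative to the median gene, 7 of 66 members were at least 2-fold higher in heart RPF, where 11.9% of all genes were, and 1, Rpl41, at least 2-fold lower, where 12.0% were. Without the 50 most abundant genes 8 were higher and 1 lower, against 13.8% and 10.7% of all genes. On these scales the share of members at least 2-fold higher in heart RPF was near that of all genes. Relative to the median gene the member median in RPF was 0.28, and 48 of 66 members lay above the shift of that gene.

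**Figure D3:**
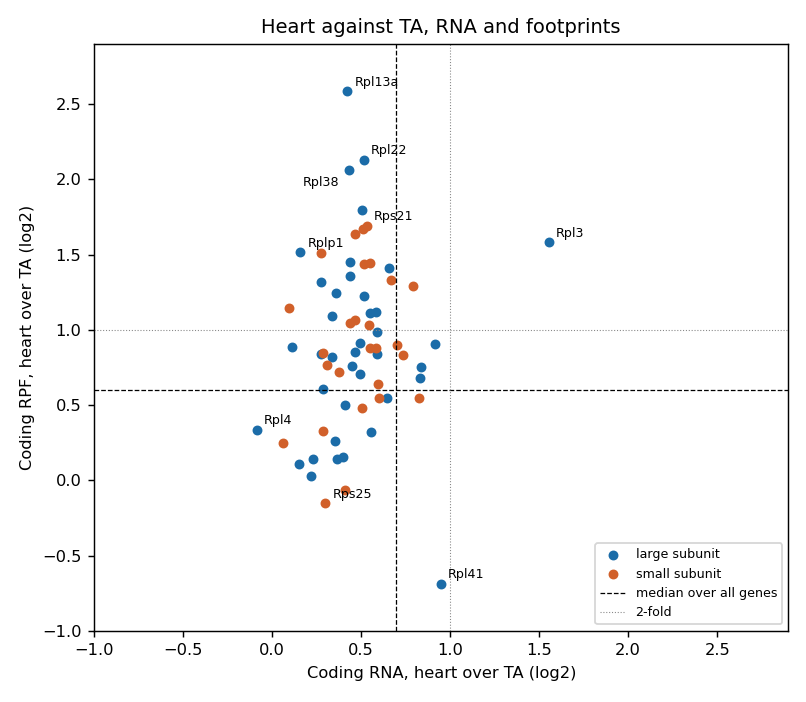
Log2 of heart over TA in coding RNA (horizontal) and coding RPF (vertical) for the 66 members in both tables, by subunit. Dashed lines are the medians over all genes (0.70 in RNA, 0.60 in RPF), and members spread from -0.69 to 2.59 in RPF but, apart from Rpl3, from -0.08 to 0.95 in RNA.

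The difference of the centred efficiencies, heart minus TA, does not depend on the total of any library. It does depend on the centring, and without it the member median was 0.41. The centred median was 0.59 over members and 0.01 over all genes. With centring, 58 of 66 members were higher in heart, where 50.6% of all genes were. At least 2-fold higher in heart were 16 of 66, 24.2% where 4.07% of all genes were, and 1 of 66, Rpl41, was at least 2-fold lower, 1.52% where 2.34% were. Among the 11 members in both tables with under 80% shared words the median was 0.49, with 2 at least 2-fold higher. By subunit the medians were 0.57 for large and 0.64 for small, with 9 of 39 and 7 of 27 at least 2-fold higher in heart. The efficiencies of members kept much of their order between the tissues (Spearman 0.81, n = 66, and 0.87 over all genes). Both efficiencies of a gene share its transcript model.

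Rpl13a, a large-subunit protein also known for silencing inflammatory mRNAs once released from the ribosome, differed most. It had 278.91 RPM of RNA and 229.91 of RPF in heart, against 208.17 and 38.19 RPM in TA. Footprints were thus 6.01-fold higher in heart and RNA 1.34-fold. Its efficiency was 0.16 in heart and -2.18 in TA, a difference of 2.35 (interval 2.23 to 2.46). Of its 28-base words 97.61% are shared with other transcripts.

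Rpl38, a large-subunit protein whose loss disturbs skeletal patterning in mice, had 95.79 RPM of RNA and 326.80 of RPF in heart, against 70.86 and 78.17 RPM in TA. Its efficiency difference was 1.81 (1.67 to 1.95). Rpl22, an RNA-binding protein with a close paralog in Rpl22l1, had 93.22 RPM of RNA and 191.65 of RPF in heart, against 65.27 and 43.69 RPM in TA, a difference of 1.80 (1.64 to 1.95). With 61.11% shared words Rpl22 is among the members better resolved by sequence. Rplp1, a partner of Rplp0 in the stalk, had 221.44 RPM of RNA and 148.40 of RPF in heart, against 198.42 and 51.77 RPM in TA, a difference of 1.54 (1.42 to 1.66). Rpl11, which with Rpl5 and 5S ribosomal RNA can bind Mdm2, followed at 1.47, and Rpl5 itself was at 1.07. In the small subunit Rps27a, made as a fusion with ubiquitin, stood at 1.42, Rps4x at 1.35 and Rps21 at 1.34. Shared words were 100.0% for Rpl38, Rpl11, Rpl5 and Rps27a, 97.12% for Rps4x, 80.19% for Rplp1 and 78.67% for Rps21.

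The 8 members that were not higher in heart were Rpl41 at -1.45 (-1.70 to -1.21), Rps24 at -0.29, Rps25 at -0.27, Rps29 at -0.10, Rpl37 and Rpl17 at -0.06, Rpl10 at -0.04 and Rpl39 at -0.01. Apart from Rpl41, Rps24 and Rps25, their intervals include 0. Just inside the 2-fold rule were Rpl5 and Rps13, both at 1.07, and just outside it Rpl12 at 0.95 and Rplp0 at 0.94.

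Rpl3 was the 1 member whose RNA differed at least 2-fold: 179.70 RPM in heart and 61.17 in TA, 2.93-fold higher in heart (log2 1.55, interval 1.44 to 1.67). Its footprints were 82.33 and 27.42 RPM, a log2 ratio of 1.58. Its paralog Rpl3l, which replaces Rpl3 in part of the ribosomes of striated muscle, went the other way with 168.14 RPM of RNA in heart and 281.14 in TA (log2 -0.74), and 294.52 and 558.55 RPM of RPF (-0.92). Rpl3l supplied 48.3% (46.6 to 50.1) of the pair's RNA reads in heart and 82.1% (81.1 to 83.1) in TA. Of the pair's footprints Rpl3l supplied 78.2% (77.4 to 78.9) in heart and 95.3% in TA (upper bound 95.6). Of the 28-base words of Rpl3 97.64% are shared with other transcripts, and sharing was not computed for Rpl3l. The intervals do not cover reads that were split or dropped for this reason. The efficiency of Rpl3l was 1.25 in both tissues, against -0.68 and -0.90 for Rpl3. Summed per kb, the pair stood at 287.1 RPM per kb in heart RNA and 281.5 in TA RNA, and at 310.1 and 481.3 in RPF.

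Another pair, Rpl36a and Rpl36al, moved in the same directions by less. Rpl36a had 80.06 RPM of RNA in heart and 71.92 in TA, with 34.19 and 31.69 RPM of RPF, and its paralog Rpl36al had 71.60 and 81.29 RPM of RNA with 52.11 and 90.07 RPM of RPF. Rpl36al took 47.2% of the pair's RNA reads in heart and 53.1% in TA, and 60.4% and 74.0% of its footprints. In both pairs the paralog's share was higher in footprints than in RNA, and higher in TA than in heart. All 28-base words of Rpl36a (100.0%) are shared with other transcripts, so the shares of this pair are uncertain too.

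**Figure D4:**
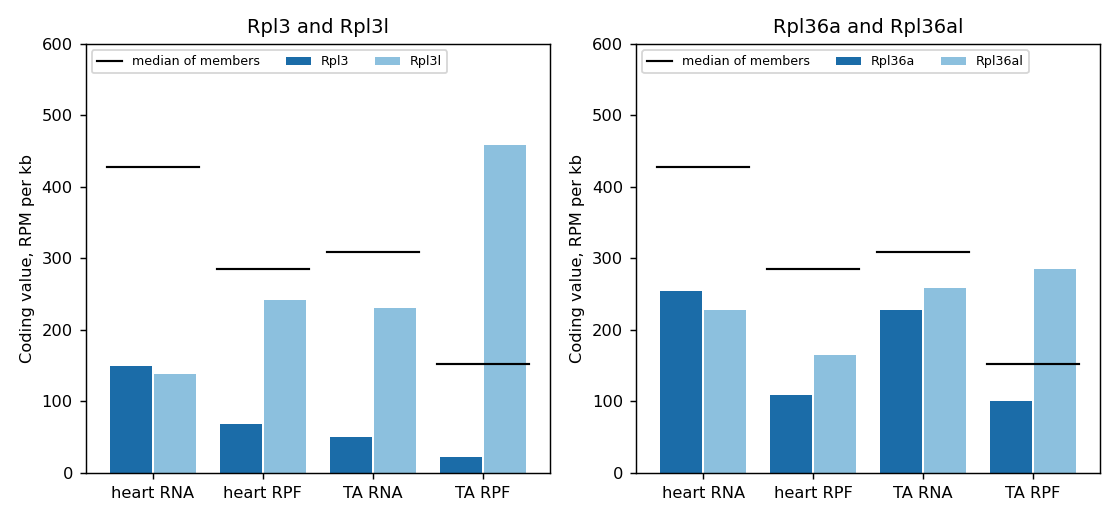
Coding RPM per kb of Rpl3 and Rpl3l (left) and of Rpl36a and Rpl36al (right) in the 4 libraries, with black lines at the median of the members. Rpl3l is above Rpl3 in every library except heart RNA, where they stand at 138.0 and 149.0 RPM per kb.

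The 5-prime UTRs of ribosomal protein mRNAs carried few footprints. Listed 5-prime UTRs were short, with a median of 78.5 bases against 156.5 over all genes in heart. In heart a median of 0.128% of a member's 5-prime UTR plus coding footprints lay in the 5-prime UTR, against 1.95% over all genes, and in TA 0.0633% against 1.27%. In RNA the members were closer to the other genes: the medians were 1.54% and 1.49% for members, and 1.84% and 1.77% for all genes. Per base, the density of footprints in the 5-prime UTR was 0.0071 of that in the coding sequence for the median member in heart and 0.0045 in TA, against 0.174 and 0.111 for the median gene. No 5-prime UTR footprint was counted for 16 of 66 members in heart and 21 of 66 in TA, which allows up to 0.106 RPM in heart and 0.105 RPM in TA for each (3 reads). The shares at 0 over all genes were 21.9% and 26.5%.

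A few small-subunit mRNAs were exceptions. Rps25 had 21.40 RPM of 5-prime UTR footprints in heart and 23.78 in TA, on a 5-prime UTR of 41 bases, and 28.04 and 21.98 RPM of RNA there. These were 17.4% of its 5-prime UTR plus coding footprints in both tissues (Wilson intervals 16.2 to 18.7 and 16.3 to 18.6), against 12.2% and 11.9% of its RNA reads. It was the 1 member with footprints denser in the 5-prime UTR than in the coding sequence, by 1.92 times in heart and 1.91 in TA. The RNA of Rps25 was denser there too, by 1.27 times in heart and 1.22 in TA. Of its coding 28-base words 98.29% are shared with other transcripts, so its coding values are uncertain. Rps14, whose haploinsufficiency underlies the anaemia of the 5q- syndrome, had 16.33 RPM of 5-prime UTR footprints in heart and 3.99 in TA, with 11.45 and 10.74 RPM of RNA. Its shares of footprints were 15.5% (14.2 to 16.8) and 5.32% (4.44 to 6.35). These intervals do not overlap, but they cover counting error only, and a tissue difference was not tested. The median share over all genes was also higher in heart, at 1.95% against 1.27% in TA. Rps12, the least efficient member, had 4.18 and 1.01 RPM of 5-prime UTR footprints, 12.6% (10.6 to 14.9) and 5.61% (3.93 to 7.94). Rps20 stood at 4.61% in heart and 2.65% in TA, while its RNA shares were 13.7% and 12.7%. The highest large-subunit members were Rpl18 in heart at 3.67% and Rpl34 in TA at 2.91%. By subunit, the median share of footprints in 5-prime UTRs was 0.312% for small and 0.0784% for large-subunit members in heart, and 0.0856% and 0.0573% in TA. Pooled over members the small subunit had 1.58% and the large 0.249% in heart, and 1.67% and 0.201% in TA. Rps25 alone gave 604 and 679 of the 5-prime UTR footprints in these sums, and Rps14 gave 461 and 114.

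**Figure D5:**
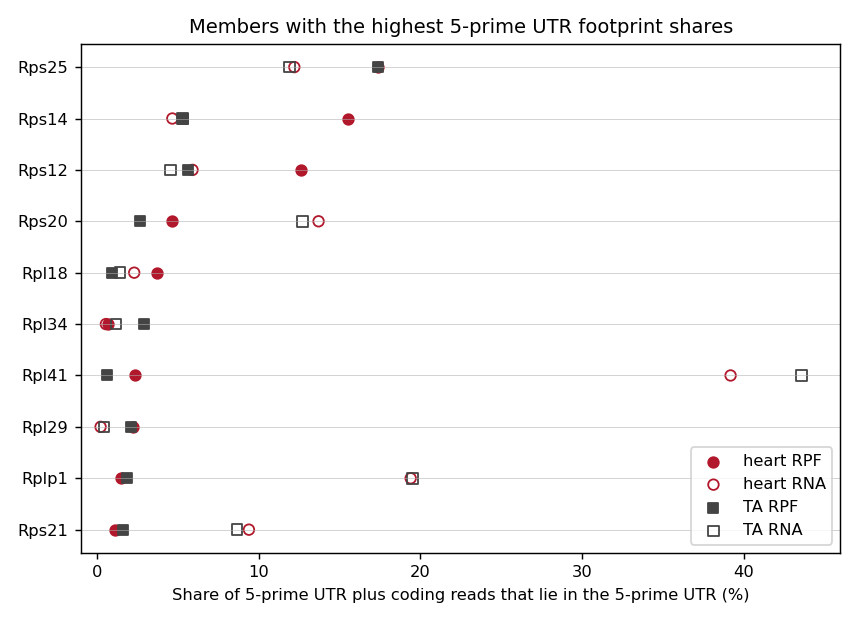
Share of 5-prime UTR plus coding reads that lie in the 5-prime UTR, in percent, for the 10 members with the highest footprint share in either tissue (filled symbols RPF, open symbols RNA, circles heart, squares TA). Rps25 has the same RPF share of 17.4% in both tissues, and Rps14 and Rps12 have higher RPF shares in heart than in TA.

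The 3-prime UTRs were all but empty of footprints, with a median of 0.042% of a member's coding plus 3-prime UTR footprints in heart and 0.0% in TA, against 1.64% and 1.68% of its RNA reads. The highest were Rpl39, a protein of the exit tunnel, at 4.01% in heart and 3.51% in TA, and Rps28 at 1.58% and 3.75%. Rps3, a protein of the mRNA entry channel, had 3.39% in heart and 0.645% in TA.

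Genes that work beside these proteins were read from fixed lists. Of 19 listed elongation factors and other TOP mRNAs, the median efficiency was 0.49 in heart and 0.00 in TA, and the median difference 0.18, with 2 of 19 at least 2-fold higher in heart and 1 lower. Tpt1, a known TOP mRNA, was at -0.17 in heart and -1.16 in TA, and Eef2, the translocase of elongation, at -0.15 and -0.78. Eef1a1, which brings aminoacyl-tRNA to the ribosome, was low in both at -1.29 and -1.08. Pabpc1 was the lowest of this list in heart at -1.82 and went the other way, with a difference of -1.0. In all, 14 of the 19 were higher in heart and 5 lower, where 50.6% of all genes were higher. Gnb2l1, the small-subunit scaffold also called Rack1, fell outside the symbol rule and stood at -0.41 and -1.28. Initiation factors had medians of 0.75 and 0.73 and a difference of -0.01, with 1 of 34 at least 2-fold higher in heart and 0 lower. Ribosome biogenesis factors had medians of 0.27 and 0.28 and a difference of 0.02, with 0 of 43 past 2-fold either way. The 73 proteins of the mitochondrial ribosome had medians of 0.67 in heart and 0.47 in TA and a difference of 0.10, with 4 at least 2-fold higher in heart and 1 lower. Among all genes the efficiency difference passed 2-fold upward (heart above TA) in 4.07% and downward in 2.34%. The upward share was 10.5% for elongation factors and other TOP mRNAs, 2.94% for initiation factors and 5.48% for mitochondrial ribosomal proteins. Their downward shares were 5.26%, 0.0% and 1.37%. Set beside a member median of 0.59 with 16 of 66 (24.2%) and 1 of 66 (1.52%), these list values are descriptions of single libraries.

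Markers of several other cell types also differed between the tissues. All 10 endothelial markers were at least 2-fold higher in heart RNA, summing to 1530 RPM in heart and 388 in TA. So were the 8 leukocyte markers listed in both tables, with sums over the listed genes of 298 and 59.3 RPM, and the 2 listed red-cell markers, at 12500 and 472 RPM. Of all genes 35.0% were at least 2-fold higher in heart RNA. Fibroblast markers were split, with 4 of 8 higher and 4 lower in heart RNA, and 2 at least 2-fold higher. Of the 4 smooth muscle and pericyte markers in both tables, 3 were at least 2-fold higher and 1 was lower. No listed marker was at 0. Median efficiency differences, heart minus TA, were -0.59 for endothelial, -0.70 for leukocyte, -0.27 for fibroblast and -0.79 for smooth muscle and pericyte markers. For the 2 red-cell markers the median was 0.14, and for the ribosomal proteins 0.59. The part of other cell types in the members' values was not tested.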

How the data were processed

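Footprint and RNA libraries, 1 of each per tissue, were made from 1 lysate of frozen tissue in cycloheximide, part of it taken for ribosomal RNA-depleted total RNA and the rest digested with RNase I and pelleted, per the labels' protocols. The submitters' processing notes name Bowtie and mm9. Read trimming, the version of Bowtie and the handling of reads with several matches are not given there. The authors deposited RPM, scaled to mapped reads per the file headers, for coding sequence and both UTRs of 1 transcript model per gene, beside the lengths. Coding columns summed to between 993727 and 998101 RPM, so values are relative to coding reads. The deposited coding length was 6 bases shorter than the coding sequence with its stop in GENCODE for 67 of 68 members.

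Low values were whole multiples of 1 step, the worth of 1 read, in 100.0% of low values in each library (within 0.005 RPM, the rounding), at 0.0354, 0.107, 0.035 and 0.0621 RPM in heart RPF, heart RNA, TA RPF and TA RNA. Because the RPF steps are not far above this rounding, recovered RPF reads are less certain. Intervals at 95% were conditional Clopper-Pearson for ratios, Wilson for shares and a Poisson approximation for efficiency differences. No count test could be fitted, since a group of 1 library has no residual degrees of freedom.

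Efficiency was centred on genes with at least 1 RPM of RNA. Tissue ratios took genes with a mean RNA of at least 1 RPM, used a pseudocount of 0.1 RPM and were not centred. Such fold values understate changes of low genes. Symbols on several rows (5 in the heart table, 4 in that of TA) kept only the row highest in summed coding value. Named members were, by rule, the 5 highest and 5 lowest in each comparison and library, the highest UTR shares, the stalk, Rpsa, members listed for 1 tissue, and those nearest the 2-fold rule. Others, such as Rps4x and the mRNAs of other lists, were chosen after their values were seen. Some members that enter the counts are not reported here by name. Members and lists were chosen with earlier results of these data known. Alternatives changed the pseudocount, minimum, rows, centring, totals, coding length, UTR length and member set. The set with under 80% shared words and the set without Rpl41 were chosen after seeing the data. Scripts were tested on simulated data and used scipy 1.17.1, pandas 2.3.3, numpy 2.4.6 and matplotlib 3.10.9 under Python 3.11.15.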

Additional observations from a re-analysis of the deposited data

Results flagged for a closer look

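For 8 members the efficiency lay above the median gene in heart and below it in TA, with both counting intervals clear of 0 and the tissues at least 2-fold apart. With 1 library per tissue this difference was not tested. Of all 9635 genes with a value in both tissues, 0.768% met the same rule. The heart side depends on the centring: without it, 5 of the 8 (Rpl13a, Rpl10a, Rpl7, Rps20 and Rps13) had less RPF than RNA in both tissues, with RPF over RNA in heart between 0.792 (Rpl7) and 0.96 (Rps13). The differences, heart minus TA on the log2 scale, were 2.35 for Rpl13a, 1.80 for Rpl22, 1.42 for Rps27a, 1.34 for Rps21, 1.23 for Rps20, 1.22 for Rpl10a, 1.10 for Rpl7 and 1.07 for Rps13.

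In RNA these 8 lay between 0.10 (Rps20) and 0.55 (Rps13) on the log2 scale of heart over TA, and in footprints between 1.14 (Rps20) and 2.59 (Rpl13a). Because the 8 were picked by their efficiency difference, footprint ratios above RNA ratios follow from the choice. Close RNA ratios were not particular to them: the quartiles over all 66 members were 0.337 and 0.585. No member lay on opposite sides in the other direction by the same rule.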

How the results depend on the processing

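All 20 medians, counts and subunit differences stayed close to their values with a pseudocount of 1 or 0.01, a minimum of 5 RPM or none, and summed rows, where counts stayed within 1.5 times. Among members with at least 300 coding bases the median efficiency in TA was -0.90, the subunit difference there 0.051, and 0 members were at least 2-fold lower in heart minus TA. The same count was 0 without Rpl41. With the centring reversed, median efficiencies were -0.46 in heart and -1.07 in TA, 20 members were at least 2-fold below in heart and 1 above in TA, and the efficiency difference was 0.41. Centred tissue ratios were -0.23 in RNA with 0 members up, and 0.28 in RPF with 7 up and 1 down. Without the 50 most abundant genes the RNA median was -0.12 with 0 up, and the RPF median 0.36 with 8 up and 1 down. Removing the trend over coding length gave medians of -0.74 and -1.25, with 3 members up and 21 down in heart and 1 up and 41 down in TA. The cause was not tested.

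The members with under 80% shared words, 11 in heart and 12 in TA, are fewer, so counts fall by construction. Efficiency in heart had a median of -0.10 with 2 up and 2 down, and in TA -0.68 with 0 up and 4 down. The RNA ratio had 0 up, the RPF ratio a median of 0.76 with 4 up, and the efficiency difference 2 up and 0 down. Large minus small subunit medians were 0.92 in heart, 0.51 in TA, -0.20 in RNA, 0.29 in RPF and 0.40 for the efficiency difference. With 5-prime UTRs of at least 30 bases the median shares were 0.188% and 2.03% in heart RPF and RNA and 0.0881% and 1.97% in TA. Over coding and UTR length together the median levels were 192, 291, 98.2 and 209 RPM per kb in heart RPF, heart RNA, TA RPF and TA RNA. No paired analysis was possible because each group was 1 library.

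Counting error was small here, with a median half-width of 0.08 on the log2 scale for an efficiency and 0.11 for the difference between tissues. The lack of replicates, sequence shared with other genes and the rounding of RPF values are further limits that these intervals do not cover.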
